A study of Mus musculus with 2 samples.

Results

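Some sorted nuclei of the mouse posterior cortex had an unusually large part of their accessible fragments in promoters, and they are described here beside nuclei of similar depth in the same mice. A nucleus, taken here as 1 cell barcode, was called promoter-rich when over 0.29 and at most 0.6 of its unique fragments overlapped a promoter, and was placed with the other nuclei when that fraction was 0.1 to 0.29. Both groups were limited to 4000 to 7000 unique fragments. The rule gave 520 promoter-rich nuclei, 229 in mouse 1 and 291 in mouse 2, out of 1089962 listed barcodes, most of which were nearly empty. The comparison group held 1254 nuclei, 537 in mouse 1 and 717 in mouse 2. Promoter-rich nuclei therefore made up 29.9% of the nuclei compared in mouse 1 (exact Clopper-Pearson 95% interval 26.7 to 33.3) and 28.9% in mouse 2 (26.1 to 31.8), shares that hold for this depth only.

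The animals were female Gad2-Cre+/-; Sun1-GFP+/- mice taken untreated from the home cage. In these mice Gad2-driven Cre recombinase, active in inhibitory neurons, switches on a GFP-tagged protein of the nuclear membrane, and nuclei were sorted on GFP. Each mouse gave 1 single-cell ATAC-seq library, with 199154831 read pairs carrying a valid barcode in mouse 1 and 200092344 in mouse 2. Ages are known only as a range over all animals used, not for each mouse. The values are counts per barcode and hold no gene. The label of inhibitory neurons could therefore not be checked against marker genes, and no nucleus was given a cell type. The paper removed barcodes scored as multiplets, of which it reported many, and then cells that marker genes set apart from inhibitory neurons. Neither step was repeated here, so both groups can hold barcodes that the paper left out.

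In this assay a transposase cuts accessible DNA and joins sequencing adapters to it, so that fragments collect in promoters, enhancers and other open regions. Promoters lie around transcription start sites (TSSs), and many of them are open in most cell types. Enhancers are regulatory regions that often lie far from the genes they act on, and which enhancers are open differs more between cell types. DNase-sensitive regions are sites that the nuclease DNase I cuts easily, a long-used mark of open chromatin of either kind.

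The nuclei were chosen by 2 measured values, the promoter fraction and the number of unique fragments, so the promoter share is given only to describe them. The promoter share of unique fragments was 36.9% in the promoter-rich nuclei of mouse 1 against 21.2% in the other nuclei, and 36.1% against 21.1% in mouse 2. The highest promoter share of any nucleus was 45.6% in mouse 1 and 47.1% in mouse 2. Few nuclei lay next to the limit. Between 0.27 and 0.29 there were 15 nuclei in mouse 1 and 25 in mouse 2, and between 0.29 and 0.31 there were 11 and 24. The depths overlapped without being equal, with a median of 5041 unique fragments in promoter-rich nuclei against 5662 in the others of mouse 1, and 5210 against 5813 in mouse 2. Weighting the other nuclei to the same depths changed none of the 10 differences between the groups by more than the spread between the mice. Every nucleus of both groups had been called a cell by Cell Ranger. No barcode was promoter-rich in both libraries, 3 barcodes were among the other nuclei in both, and the promoter-rich barcodes of either mouse had a median of 1 fragment in the other mouse's library.

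Fragments outside promoters were also concentrated at annotated regulatory regions in the promoter-rich nuclei. Fragments are on-target when they overlap a TSS, DNase-sensitive, enhancer or promoter region. Leaving out every promoter fragment, the on-target share of what remained was 70.7% in promoter-rich nuclei of mouse 1 against 54.5% in the other nuclei. In mouse 2 it was 70.4% against 55.0%. The difference was 15.8 ± 0.612 percentage points (SD, n = 2 mice), so it was far larger than the spread between the mice. Over nuclei, the on-target share of non-promoter fragments was above the 95th percentile of the other nuclei in 97.8% of promoter-rich nuclei in mouse 1 and 97.3% in mouse 2. This share also rose with the promoter share among the other nuclei (Spearman correlation 0.74 in mouse 1 and 0.69 in mouse 2). Next to the limit, at promoter fractions of 0.27 to 0.29, its median was 60.5% in mouse 1 and 61.2% in mouse 2. At 0.29 to 0.31 it was 61.3% and 65.2%. Fragments outside every annotated region made up 18.5% of unique fragments against 35.9% in mouse 1 and 18.9% against 35.5% in mouse 2, 0.525 ± 0.0127 times the level in the other nuclei (SD, n = 2 mice). These fragment measures come from the same fragments as the promoter fraction, so they are given as a description with no test.

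**Figure D1:**
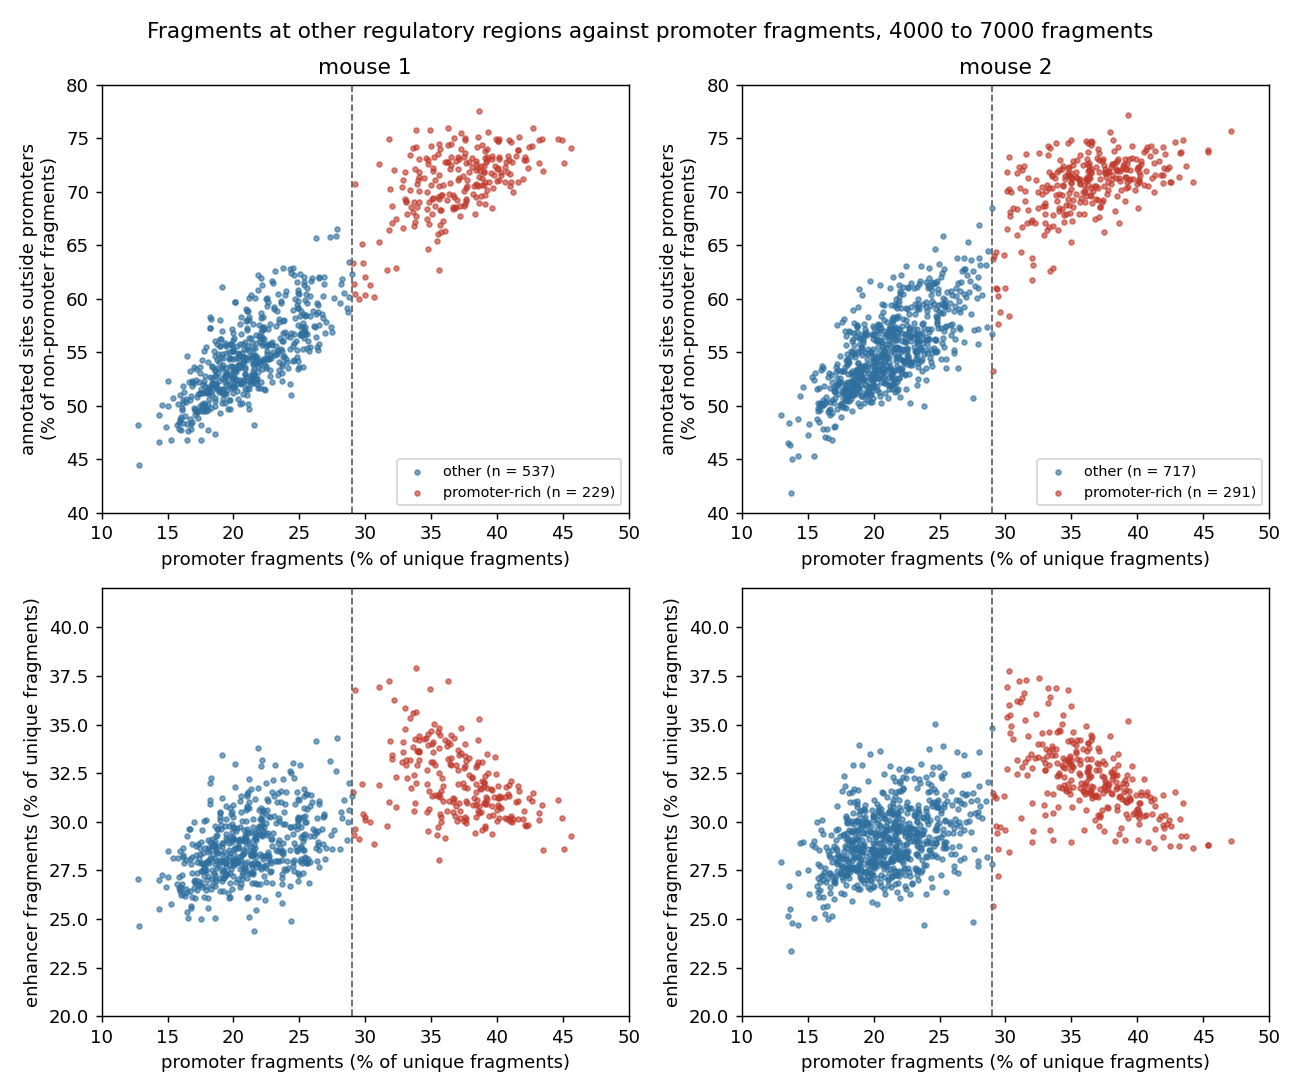
Each point is 1 nucleus with 4000 to 7000 unique fragments, from mouse 1 (left) or mouse 2 (right), promoter-rich in red and other in blue, with promoter fragments as a percentage of unique fragments on the x axis and the dashed line at the limit of 29%. The upper panels show on-target fragments as a percentage of non-promoter fragments, which separate most of the red from the blue points, and the lower panels show enhancer fragments as a percentage of unique fragments, which correlate positively with the promoter share among the blue points and negatively among the red.

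By kind of region, TSS fragments made up 40.5% of unique fragments in promoter-rich nuclei of mouse 1 against 25.6% in the others, and 39.8% against 25.5% in mouse 2. TSS and promoter regions overlap in part, so this difference of 14.6 ± 0.450 percentage points (SD, n = 2 mice) largely restates the rule. DNase-sensitive regions took 64.7% of fragments against 48.8% in mouse 1 and 64.4% against 49.2% in mouse 2, a difference of 15.5 ± 0.491 percentage points (SD, n = 2 mice). The kinds of annotated region summed over an on-target fragment, a sum that includes the promoter fragments that chose the nuclei, averaged 2.14 in promoter-rich nuclei of mouse 1 against 1.94 in the others, and 2.13 against 1.94 in mouse 2.

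Enhancer fragments were higher too, by a smaller amount. They made up 32.0% of unique fragments in promoter-rich nuclei of mouse 1 against 28.7% in the others, and 32.2% against 29.0% in mouse 2, a difference of 3.22 ± 0.0991 percentage points (SD, n = 2 mice). The enhancer share was above the median of the other nuclei in 99.6% of promoter-rich nuclei in mouse 1 and 96.6% in mouse 2, but above their 95th percentile in 51.1% and 47.8%, so the groups overlapped. The balance of enhancer to non-promoter fragments was 0.507 enhancer fragments per non-promoter fragment against 0.364 in mouse 1, and 0.504 against 0.368 in mouse 2, which is 1.38 ± 0.0161 times the level in the other nuclei (SD, n = 2 mice). The rule itself sets part of this ratio, since non-promoter fragments were 63.1% of unique fragments in promoter-rich nuclei of mouse 1 against 78.8% in the others, and 63.9% against 78.9% in mouse 2. The enhancer share alone was 1.11 ± 0.00432 times that of the other nuclei. A fragment can lie in an enhancer and in a promoter at once, so this balance is a ratio of counts and not a share of non-promoter fragments.

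The enhancer share correlated with the promoter share in opposite directions in the 2 groups. Across the other nuclei, which share a library, the Spearman correlation of enhancer and promoter share was 0.42 over 537 nuclei in mouse 1 and 0.39 over 717 in mouse 2. Across promoter-rich nuclei it was -0.39 over 229 nuclei and -0.49 over 291. Within the promoter-rich group the median enhancer share was 30.1% of fragments in mouse 1 and 32.0% in mouse 2 at promoter fractions of 0.29 to 0.31, with 11 nuclei in mouse 1. It was 33.3% in both mice at 0.31 to 0.33, with 14 nuclei in mouse 1, 33.6% and 33.1% at 0.33 to 0.35, and 30.3% and 29.9% in nuclei above 0.41. Both shares have the same denominator, and the difference between the correlations was not tested.

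Peaks are regions of high fragment density that Cell Ranger called from the data. The peak share of unique fragments was 59.2% in promoter-rich nuclei of mouse 1 against 48.3% in the others, and 60.1% against 50.6% in mouse 2, a difference of 10.2 ± 0.971 percentage points (SD, n = 2 mice). Next to the limit the order turned. In other nuclei at promoter fractions of 0.27 to 0.29 the median was 55.6% in mouse 1 and 59.7% in mouse 2. In promoter-rich nuclei at 0.29 to 0.31 it was 51.7% and 55.6%. Among the other nuclei the peak share rose with the promoter share (Spearman correlation 0.83 in mouse 1 and 0.84 in mouse 2). A cut site is the end of a fragment, and the number of cut sites in peaks per peak fragment says how often both ends lie within a peak. Cut sites per peak fragment were 1.93 in promoter-rich nuclei of each mouse and 1.89 in the others, a difference of 0.0399 ± 0.00166 (SD, n = 2 mice). Taking 2 ends per fragment, 7.04 ends per 100 peak fragments lay outside peaks in promoter-rich nuclei of mouse 1 against 11.1 in the others, and 7.26 against 11.1 in mouse 2. In 100% of the promoter-rich nuclei of each mouse this ratio of cut sites was above the median of the other nuclei. The ratio also rose with the promoter share among the other nuclei (Spearman correlation 0.77 in each mouse). At promoter fractions of 0.27 to 0.29 its median was 1.91 in mouse 1 and 1.92 in mouse 2. At 0.29 to 0.31 it was 1.91 in both mice.

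Blacklisted regions are parts of the genome that collect reads in sequencing assays whatever the sample. They held 0.134% of unique fragments in promoter-rich nuclei of mouse 1 (exact binomial 95% interval 0.127 to 0.140, counting error only) against 0.142% in the others (0.138 to 0.146), and 0.107% (0.102 to 0.112) against 0.139% (0.135 to 0.143) in mouse 2. The difference of -0.0201 ± 0.0165 percentage points (SD, n = 2 mice) had the same sign in both mice but hardly exceeded their spread, and the nuclei of the groups overlapped widely.

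**Figure D2:**
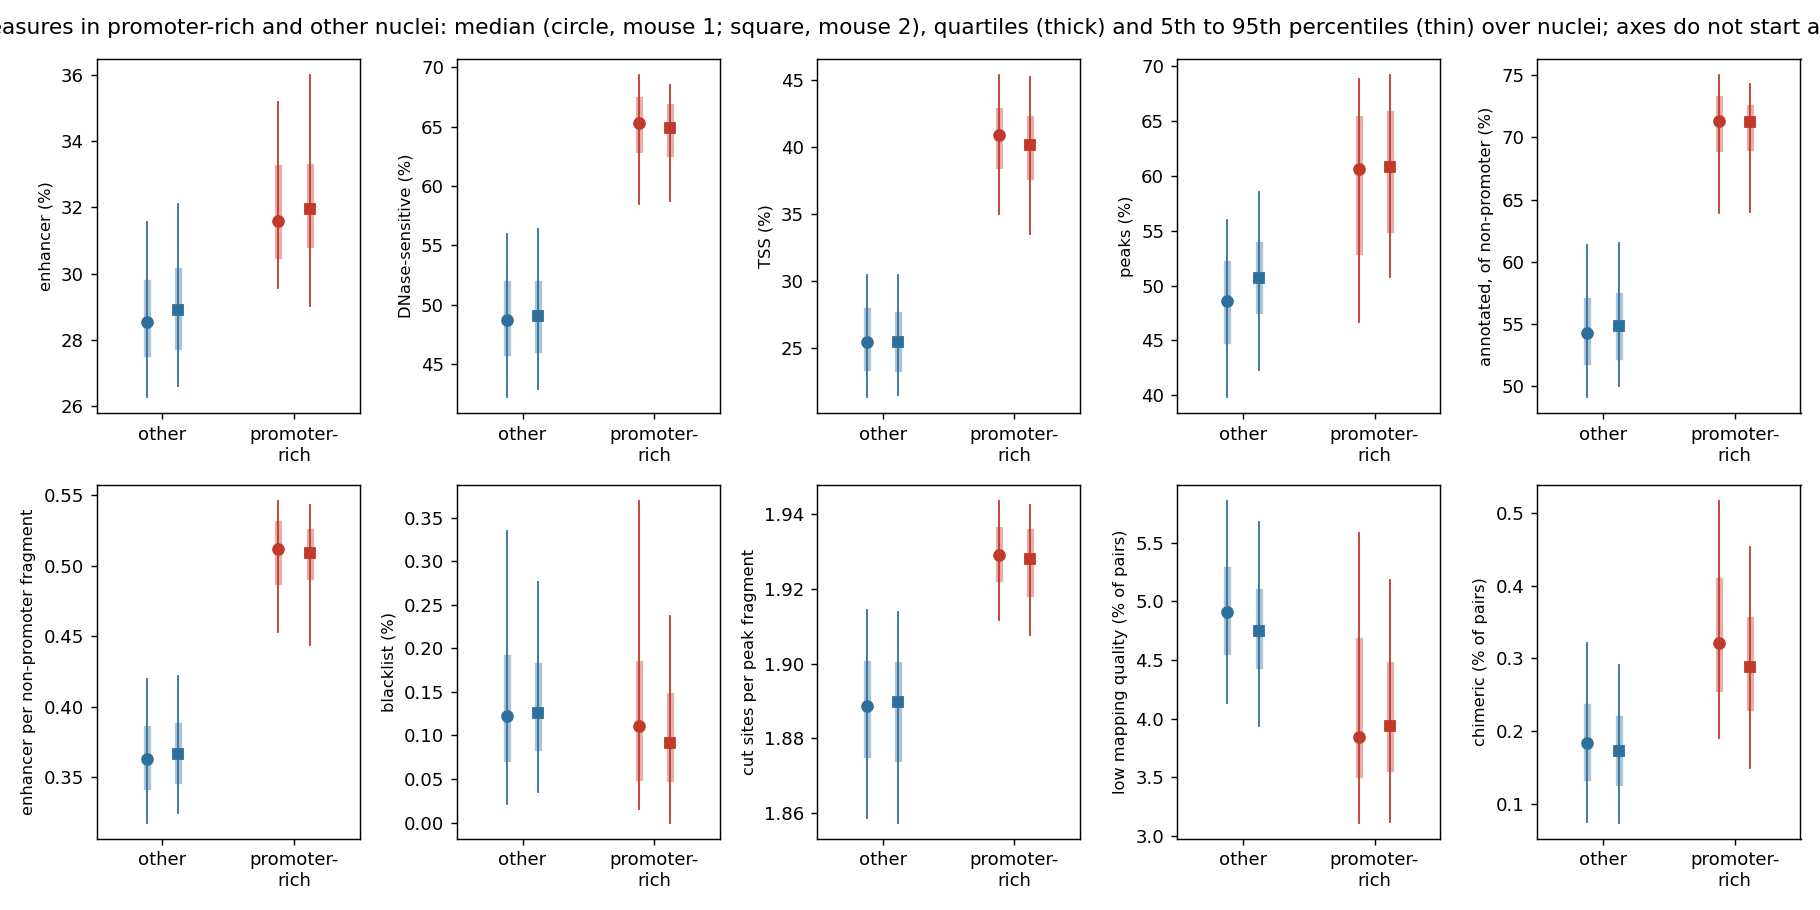
Each panel shows 1 measure in other (blue) and promoter-rich (red) nuclei with 4000 to 7000 fragments, as shares of unique fragments or of read pairs in percent or as ratios of counts. Symbols are medians over nuclei of mouse 1 (circles) and mouse 2 (squares), thick bars the quartiles and thin lines the 5th to 95th percentiles, and the axes do not start at 0. The 2 mice lie close together in each group, and the blacklist shares of the groups overlap widely.

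The promoter-rich nuclei were not uniform. The ratio of peak fragments to on-target fragments had 2 modes among them in each mouse, whereas the other nuclei had a main mode near a median of 0.759 in mouse 1 and 0.787 in mouse 2. In mouse 1, 20 promoter-rich nuclei had a ratio of 0.62 to 0.64, only 2 had 0.66 to 0.68, and 49 had 0.78 to 0.80. In mouse 2, 41 had 0.64 to 0.66, 7 had 0.72 to 0.74 and 49 had 0.80 to 0.82. A line at 0.70, placed after these values were seen, put 71 promoter-rich nuclei of mouse 1 (31.0%, exact Clopper-Pearson 95% interval 25.1 to 37.4) and 96 of mouse 2 (33.0%, 27.6 to 38.7) on the low side. In mouse 2 the trough lay somewhat higher, and 30 nuclei were within 0.02 of the line, against 6 in mouse 1. Among the other nuclei, 11.7% in mouse 1 and 4.04% in mouse 2 had a ratio of at most 0.70. As the sides were drawn from the values, what follows on them is a description with no test.

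**Figure D3:**
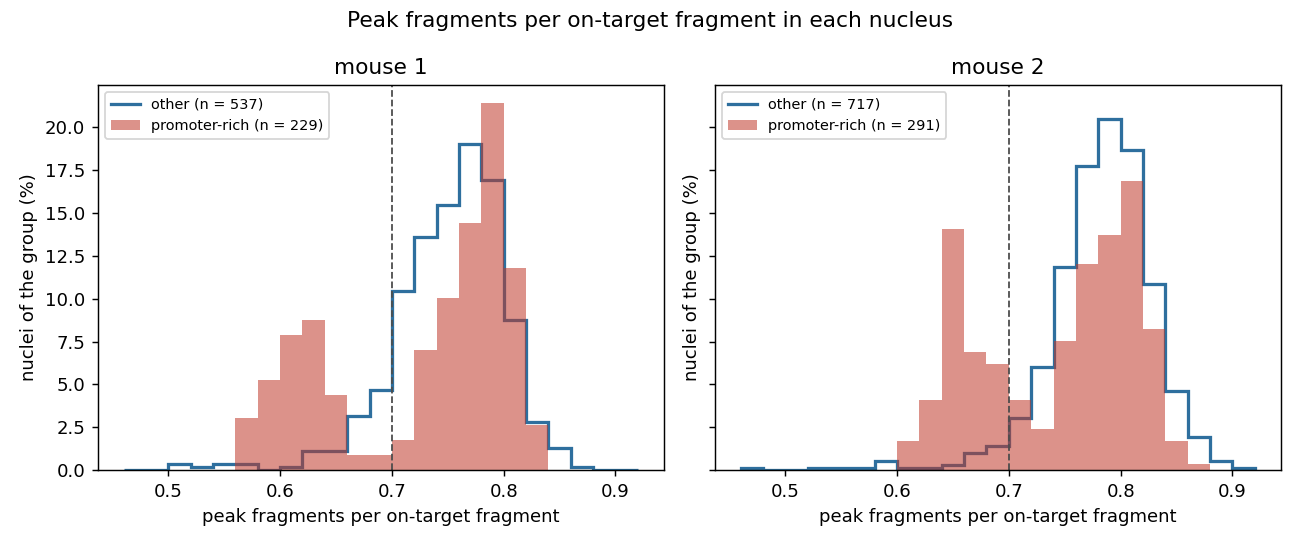
Histograms of peak fragments per on-target fragment (x axis) in steps of 0.02, as a percentage of the nuclei of each group (y axis), for promoter-rich nuclei (red, filled) and other nuclei (blue line) with 4000 to 7000 fragments in mouse 1 (left) and mouse 2 (right). The red distribution has 2 modes on either side of the dashed line at 0.70 in each mouse, and the blue distribution has its main mode above the line.

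The median on-target share was 82.3% of fragments on the low side and 82.1% on the high side in mouse 1, against 64.0% in the other nuclei, and 81.5%, 81.8% and 64.4% in mouse 2. The median peak share, in contrast, was 50.7% on the low side and 64.0% on the high side in mouse 1, against 48.6% in the other nuclei. In mouse 2 the peak shares were 53.4%, 64.0% and 50.7%. Peak fragments are the numerator of the ratio that divides the sides, so with like on-target shares the lower peak share of the low side restates the division. DNase-sensitive and TSS shares were somewhat lower on the low side, with a median DNase-sensitive share of 63.7% of fragments against 66.1% on the high side in mouse 1 and 63.3% against 65.8% in mouse 2, a difference of -2.44 ± 0.155 percentage points (SD, n = 2 mice). The median TSS share differed by -1.72 ± 0.732 percentage points (SD, n = 2 mice).

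The sides differed in other measures as well. The median enhancer share was 33.4% on the low side and 31.1% on the high side in mouse 1, and 33.2% and 31.4% in mouse 2, a difference of 2.06 ± 0.335 percentage points (SD, n = 2 mice). The median promoter share was lower on the low side, at 35.1% against 38.4% in mouse 1 and 35.0% against 37.2% in mouse 2, so the negative correlation of enhancer and promoter share over all promoter-rich nuclei holds a part that lies between the sides. Within the high side the Spearman correlation was -0.30 over 158 nuclei in mouse 1 and -0.42 over 195 in mouse 2. Within the low side it was -0.03 over 71 nuclei and -0.43 over 96. The median depth was 5366 fragments on the low side and 4998 on the high side in mouse 1, and 5590.5 and 5034 in mouse 2.

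Read pairs that were not counted as unique fragments did not enter the rule, and each class is given as a share of all read pairs of a group. With 2 mice the exact sign-flip permutation test of a difference cannot give a two-sided p below 0.5, so these comparisons rest on whether the mice had the same direction and on the size of the difference beside their spread. Chimeric read pairs, whose ends map to places that do not form 1 fragment, made up 0.33% in promoter-rich nuclei of mouse 1 against 0.192% in the others. In mouse 2 they made up 0.294% against 0.177%. The difference of 0.128 ± 0.0152 percentage points (SD, n = 2 mice, exact permutation p = 0.5) had the same direction in both mice, and the ratio was 1.69 ± 0.0420. Of the promoter-rich nuclei, 95.6% in mouse 1 and 91.1% in mouse 2 were above the median chimeric share of the other nuclei. Among the other nuclei the chimeric share rose with the promoter share (Spearman correlation 0.31 in mouse 1 and 0.36 in mouse 2). Among promoter-rich nuclei the correlation was 0.002 and 0.080. At promoter fractions of 0.27 to 0.29 the median chimeric share was 0.241% in mouse 1 and 0.197% in mouse 2. At 0.29 to 0.31 it was 0.294% and 0.278%. The share was higher on the low side, at a median of 0.411% in mouse 1 and 0.356% in mouse 2, than on the high side, at 0.30% and 0.27%.

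Mitochondrial read pairs come from the mitochondrial genome, which carries no nucleosomes and is cut readily when it is carried along with nuclei. Pooled over nuclei they made up 1.43% of read pairs in promoter-rich nuclei of mouse 1 against 0.278% in the others, and 0.702% against 0.293% in mouse 2. This pooled difference of 0.782 ± 0.528 percentage points (SD, n = 2 mice, exact permutation p = 0.5) came mostly from 1 barcode in each mouse. In mouse 1 that barcode had 45.1% mitochondrial read pairs, the next highest promoter-rich nucleus had 2.67%, and it held 75.3% of all mitochondrial pairs of the group. In mouse 2 it had 37.9%, the next highest had 1.43%, and it held 57.5%. Leaving that barcode out, mitochondrial pairs made up 0.363% (mouse 1) and 0.302% (mouse 2), a difference from the other nuclei of 0.0467 ± 0.0538 percentage points (SD, n = 2 mice), which is within the spread between the mice. The median over nuclei was 0.307% in promoter-rich against 0.242% in other nuclei of mouse 1, and 0.263% against 0.246% in mouse 2. In the other nuclei at promoter fractions of 0.27 to 0.29 the median was higher, at 0.427% in mouse 1 and 0.422% in mouse 2. In promoter-rich nuclei at 0.29 to 0.31 it was 0.392% and 0.341%. The Spearman correlation with the promoter share was 0.47 and 0.44 among the other nuclei. Among promoter-rich nuclei it was 0.002 and -0.013.

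The 2 barcodes with the most mitochondrial pairs resembled each other. They had 39367 read pairs and 6524 unique fragments in mouse 1 and 21930 read pairs and 5495 unique fragments in mouse 2, against a median of 6818 and 6845 read pairs in the promoter-rich nuclei. Read pairs with a low mapping quality made up 32.2% in mouse 1 and 27.9% in mouse 2. Their promoter shares, which the rule bounded, were 33.8% and 35.0%, and their peak shares of 59.6% and 60.5% were near the medians of the promoter-rich nuclei, 60.6% and 60.9%. Their enhancer shares were high for the group, at 37.9% in mouse 1, the highest of its 229 promoter-rich nuclei, and 36.0% in mouse 2, against medians of 31.6% and 31.9%. Over all barcodes with 1000 to 100000 fragments and a promoter fraction of 0.1 to 0.6, 2 of 9744 in mouse 1 and 1 of 11403 in mouse 2 had over 20% mitochondrial read pairs.

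**Figure D4:**
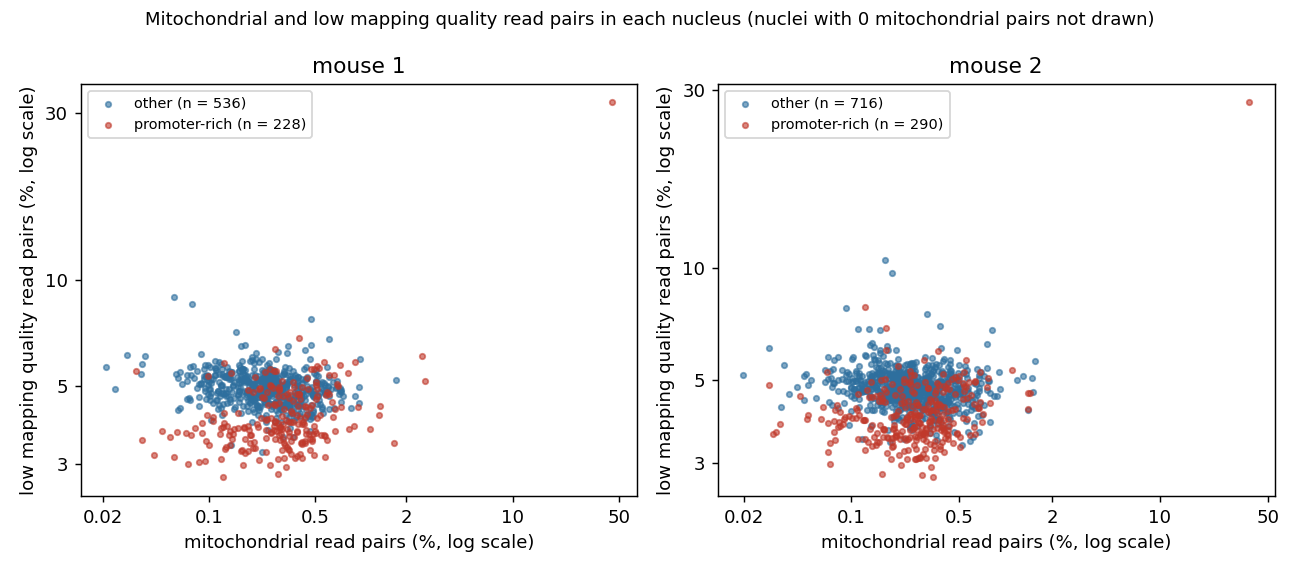
Each point is 1 nucleus with 4000 to 7000 fragments, promoter-rich in red and other in blue, with mitochondrial read pairs (x axis) and read pairs of low mapping quality (y axis) as percentages of its read pairs on log scales, for mouse 1 (left) and mouse 2 (right). A single promoter-rich barcode per mouse lies far to the upper right, at 45.1% and 37.9% mitochondrial pairs, and the remaining red points spread lower than the blue on the y axis.

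Low mapping quality marks read pairs that fit several places in the genome about equally, as in repeats. Pooled, they made up 4.76% of read pairs in promoter-rich nuclei of mouse 1 against 4.95% in the others, and 4.33% against 4.79% in mouse 2, a difference of -0.324 ± 0.193 percentage points (SD, n = 2 mice, exact permutation p = 0.5). The barcode with the most mitochondrial pairs raised the promoter-rich value here too. Without it the shares were 4.09% and 4.07%, and the difference was -0.786 ± 0.104 percentage points (SD, n = 2 mice). With that barcode kept, the pooled difference changed sign to 0.0548 ± 0.279 percentage points when only mapped pairs that are not duplicates formed the denominator. It was then 0.252 in mouse 1 and -0.142 in mouse 2, so the mice did not have the same direction. Over all read pairs, with no barcode left out, the pooled difference also changed sign at 5500 to 7000 fragments. It was 0.189 ± 0.973 percentage points there and -0.730 ± 0.385 at 4000 to 5500 fragments (SD, n = 2 mice). The median over nuclei was 3.85% against 4.91% in mouse 1 and 3.93% against 4.75% in mouse 2, and 62.4% and 50.5% of the promoter-rich nuclei were below the 5th percentile of the other nuclei.

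The lower share was that of the high side of the promoter-rich nuclei. There the median stood at 3.67% (mouse 1) and 3.70% (mouse 2). On the low side it was 4.89% and 4.67%, which differed from the median of the other nuclei by -0.0491 ± 0.0322 percentage points (SD, n = 2 mice), against -1.15 ± 0.138 for the high side. Over mapped pairs that are not duplicates the median of the low side differed from that of the other nuclei by 0.280 ± 0.133 percentage points (SD, n = 2 mice) and that of the high side by -0.879 ± 0.152, so the low side was then above the other nuclei. Across promoter-rich nuclei the share of low mapping quality fell as the ratio of peak to on-target fragments rose, with a Spearman correlation of -0.70 over 229 nuclei in mouse 1 and -0.76 over 291 in mouse 2, which holds a part that lies between the sides. Within the low side it was -0.44 over 71 nuclei in mouse 1 and -0.45 over 96 in mouse 2, and within the high side -0.30 over 158 and -0.50 over 195. In the other nuclei it was -0.38 over 537 and -0.33 over 717. The share of low mapping quality also fell as the promoter share rose. That Spearman correlation was -0.46 in mouse 1 and -0.40 in mouse 2 among the other nuclei, and -0.58 and -0.51 among promoter-rich nuclei. At promoter fractions of 0.27 to 0.29 the median share of low mapping quality was 4.33% in mouse 1 and 4.29% in mouse 2. At 0.29 to 0.31 it was 4.72% and 3.95%.

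Promoter-rich nuclei also held more duplicates, copies of a fragment already counted. Of duplicates plus unique fragments, duplicates made up 18.2% in promoter-rich nuclei of mouse 1 against 10.9% in the others, and 17.7% against 11.2% in mouse 2. This share also rose with the promoter share among the other nuclei (Spearman correlation 0.32 in mouse 1 and 0.37 in mouse 2). From duplicates and unique fragments, the number of distinct fragments in the library of each nucleus was estimated, taking every fragment as equally likely to be read. The median estimate was 15701 fragments in promoter-rich nuclei of mouse 1 against 27137 in the others, 0.579 times as many. In mouse 2 it was 16070 against 26547, or 0.605 times. The estimates were not weighted to the same depths, and the median number of unique fragments was lower in promoter-rich nuclei. Unmapped read pairs were higher by 0.407 ± 0.0247 percentage points (SD, n = 2 mice), at 4.15% in promoter-rich nuclei of each mouse against 3.76% and 3.73%.

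Some of these measures were also examined at other depths. Promoter-rich nuclei were far less frequent above 7000 fragments. They made up 10.3% of the nuclei compared at 1000 to 1999 fragments in mouse 1, 29.1% at 2000 to 3999 and 4.71% at 7001 to 11999, and 9.75%, 37.4% and 3.11% in mouse 2. The median on-target share of non-promoter fragments was 70.2% in the 48 promoter-rich nuclei of mouse 1 with 1000 to 1999 fragments and 70.4% in the 90 with 7001 to 11999, against 53.4% and 54.1% in the other nuclei. In mouse 2 it was 71.0% in 47 and 70.0% in 92 nuclei, against 53.4% and 54.3%. From the lower to the higher of these windows the median enhancer share of promoter-rich nuclei went from 30.4% to 32.2% in mouse 1 and from 30.7% to 32.8% in mouse 2, and its difference from the other nuclei grew from 1.96 to 3.64 and from 2.16 to 3.93 percentage points. The median peak share was 63.5% at 1000 to 1999 fragments, 64.6% at 2000 to 3999 and 56.9% at 7001 to 11999 in mouse 1, and 65.3%, 65.5% and 58.0% in mouse 2. The difference in peak share was 16.9 percentage points in the lowest of these windows and 8.38 in the highest in mouse 1, and 16.7 and 7.72 in mouse 2. The median share of low mapping quality in promoter-rich nuclei went from 3.76% to 4.30% and from 3.60% to 4.30%, and its difference from the other nuclei shrank from -1.27 to -0.597 and from -1.23 to -0.467 percentage points. These differences kept their sign in each window from 1000 to 11999 fragments. Over the same windows and both mice the median mitochondrial share was higher in promoter-rich nuclei by 0.0165 to 0.0801 percentage points, with the smallest difference at 4000 to 7000 fragments in mouse 2. The median chimeric share was higher by 0.0943 to 0.151 percentage points, and cut sites per peak fragment by 0.0352 to 0.0529. DNase-sensitive, TSS, blacklist, duplicate and unmapped shares were not examined by window below 4000 or above 7000 fragments. The low side made up 14.6% of promoter-rich nuclei at 1000 to 1999 fragments in mouse 1 and 44.4% at 7001 to 11999, and 10.6% and 31.5% in mouse 2, with 46.5% at 5500 to 7000 fragments. Of the other nuclei in the lower and the higher window, 16.9% and 8.84% in mouse 1 and 5.06% and 2.90% in mouse 2 had a ratio of at most 0.70, so at 1000 to 1999 fragments in mouse 1 the share was no higher among promoter-rich nuclei. From 12000 fragments upward fewer than 20 nuclei per window and mouse were promoter-rich, and no trend is given there.

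**Figure D5:**
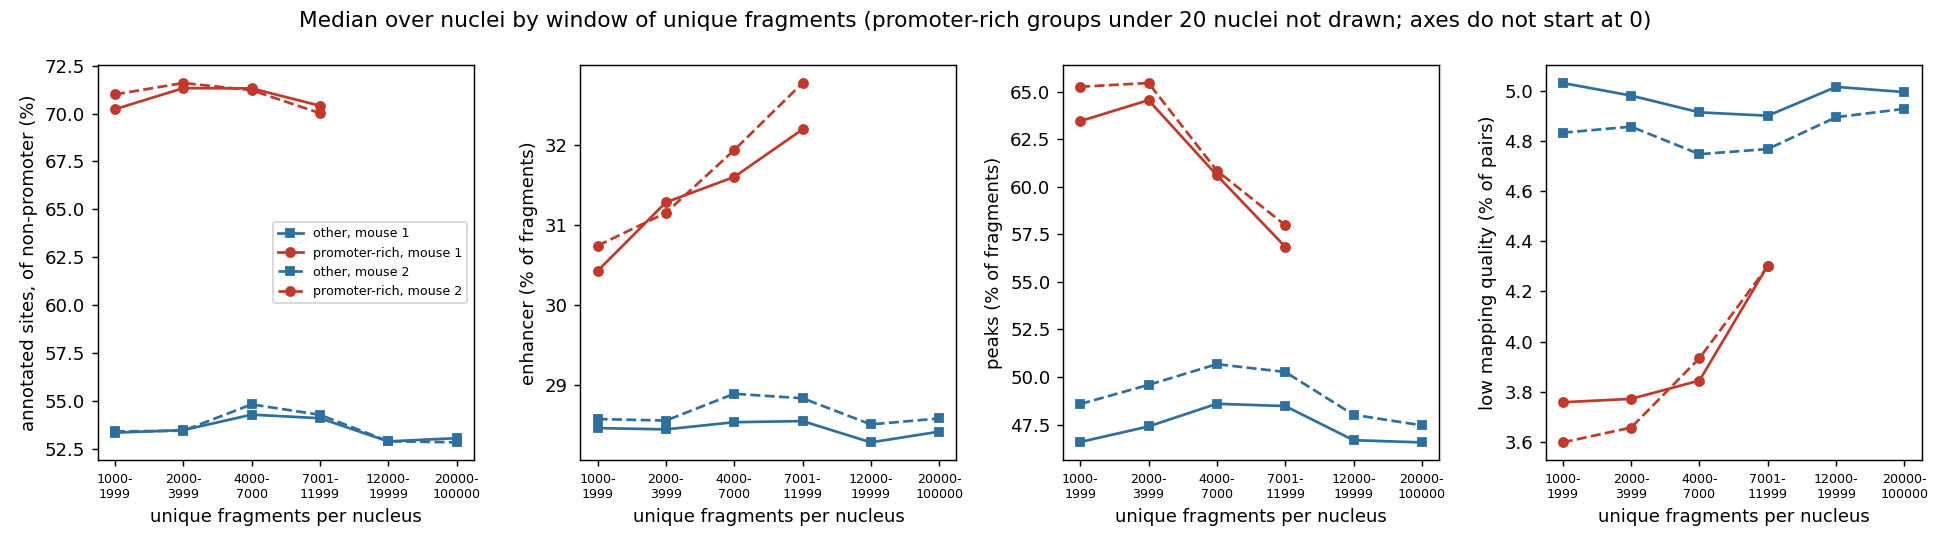
Medians over promoter-rich (red circles) and other (blue squares) nuclei of mouse 1 (solid lines) and mouse 2 (dashed lines) in windows of unique fragments per nucleus (x axis), in percent; the axes do not start at 0 and red points with fewer than 20 nuclei are not drawn. The on-target share of non-promoter fragments stays near 70% to 72% in red, while the red enhancer and low mapping quality shares rise over the windows drawn and the red peak share falls from 2000 to 3999 fragments upward, after a small rise.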

How the data were processed

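The authors mapped the reads to mm10 with Cell Ranger (the submitters' processing notes name Cell Ranger ATAC 1.1.0) at default parameters and deposited, for each barcode, counts of its read pairs and its unique fragments, 1 library per mouse, not normalized and not pooled. The annotation behind each kind of region is not given in the sources used here. In every listed barcode the classes of read pairs summed to the total, and on-target fragments lay between the largest kind of region and the sum of the kinds. Cut sites exceeded 2 per peak fragment in 178 barcodes of mouse 1 and 160 of mouse 2, with at most 53 and 64 unique fragments and 0 of them in the groups compared. The entry for read pairs without a valid barcode was left out.

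Counts were summed over the nuclei of a group in each mouse, and shares, differences within a mouse and the mean and SD over 2 mice were computed from the sums. Barcodes were not treated as replicates, and a barcode can hold several nuclei; doublets were not called. Intervals are exact Clopper-Pearson 95% intervals and cover counting error only. The promoter-rich group, its measures and the alternatives were chosen with earlier results of these data known. The design names no gene. The weighting by depth, in bins of 250 fragments, and the library estimate were checked on simulated data. Python 3.11.15, pandas 2.3.3, NumPy 2.4.6, SciPy 1.17.1 and matplotlib 3.10.9 were used.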

Additional observations from a re-analysis of the deposited data

How the results depend on the processing

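Apart from leaving out a mouse and from settings added after seeing the data, the alternatives gave 100 values for 11 results. Of these values, 73 differed from the main value by no more than the SD between the mice, 25 moved further and 2 changed sign. Both changes of sign were of low mapping quality: the difference of -0.324 percentage points became 0.189 at 5500 to 7000 fragments and 0.0548 with mapped read pairs that are not duplicates as the denominator. Neither held without the barcodes over 20% mitochondrial, settings added after seeing the data: low mapping quality then differed by -0.585 at that depth, with 0.0375 for mitochondrial pairs, and by -0.511 with that denominator, with 0.0869 for mitochondrial and 0.184 for chimeric pairs. Without those barcodes alone the differences were 0.0467 for mitochondrial and -0.786 for low mapping quality pairs, without barcodes over 2% mitochondrial 0.0378 and -0.792, and as medians over barcodes 0.0411 and -0.940. The new denominator alone gave a chimeric difference of 0.178.

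The narrower windows moved most fragment measures. At 4000 to 5500 fragments the promoter-rich share of nuclei was 38.1%, and the differences were 2.90 for enhancer, 16.2 for DNase-sensitive, 15.4 for TSS and 11.9 for peak shares, 0.0424 for cut sites per peak fragment and -0.730 for low mapping quality. At 5500 to 7000 fragments they were 21.3%, 3.66, 14.7, 13.7, 8.11 and 0.0372 in the same order. The pooled mitochondrial difference was 0.420 at 4000 to 5500 fragments, with an SD of 0.452 over 2 mice. At 5500 to 7000 fragments it was 1.28, with an SD of 1.79. As medians over barcodes, enhancer, DNase-sensitive and TSS differences were 3.05, 16.2 and 15.1, and enhancer fragments per non-promoter fragment differed by 0.146. A promoter fraction of 0.27 between the groups gave 31.6% promoter-rich nuclei and 0.134 for that balance, and 0.31 gave 27.5% promoter-rich nuclei. A line at 0.68 or 0.72 in place of 0.70, chosen after seeing the data, put 28.5% or 34.9% of promoter-rich nuclei on the low side, against 32.0%. Called cells only, leaving out barcodes in the window in both mice, and weighting by depth moved 0 results by more than the spread; the first 2 could hardly change which nuclei were compared. For the fragment measures the cause was not tested.

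Leaving out either mouse gave 28.9% to 29.9% for the promoter-rich share of nuclei, 3.15 to 3.29 for the enhancer share, 0.136 to 0.143 for enhancer fragments per non-promoter fragment, 15.2 to 15.8 for DNase-sensitive, 14.3 to 14.9 for TSS, 9.52 to 10.9 for peak and -0.0318 to -0.00843 for blacklist shares, 0.0387 to 0.0410 for cut sites, 0.409 to 1.16 for mitochondrial, -0.460 to -0.187 for low mapping quality and 0.117 to 0.138 for chimeric pairs, and 31.0% to 33.0% for the low side. Each difference was taken within a mouse, so the comparison is paired by mouse throughout.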
